A study of Mus musculus with 4 samples.

Results

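The 10 genes described here handle iron, haem and zinc. They are the metallothioneins Mt1 and Mt2, haem oxygenase 1 (Hmox1), the ferritin chains Fth1 and Ftl1, the iron exporter ferroportin (Slc40a1), the transferrin receptor (Tfrc), transferrin (Trf), the metal importer Slc39a14 and hepcidin (Hamp). They were chosen by name for their role, with earlier results of these data known, and are 10 of the 23282 genes listed in each heart library. All 10 had reads in all 4 libraries and reached the minimum of 4 normalized reads.

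The study compared the hearts of CDF1 mice, described in its methods as males, in 4 groups of 10 mice. The normal control (E-&T-) had neither exercise nor tumor cells, the normal exercise group (E+&T-) was trained by high-intensity aerobic exercise on a motorized treadmill, the cancer control (E-&T+) received CT26 murine colorectal carcinoma cells through the tail vein, and the cancer exercise group (E+&T+) had both. The labels give an age of postnatal day 28, whereas the methods place the training and the tissue collection after the mice had been bought at about that age. There was 1 heart library per group, and the labels do not say whether it came from 1 mouse or a pool. CT26 is a single established cell line that was spread through the blood, and the tumor load of the hearts was not given. No difference below has a replicate check, and no p-value is given.

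Iron enters most cells as transferrin-bound iron through the transferrin receptor, is stored in the ferritin shell of heavy and light chains, and leaves through ferroportin, which hepcidin removes from the membrane. Haem oxygenase 1 opens the haem ring and frees its iron. Metallothioneins are small cysteine-rich proteins that bind zinc and copper, and their genes are known to respond to metals, glucocorticoids and interleukin 6. In the heart, where cardiomyocytes need iron for mitochondria and myoglobin, iron-regulatory proteins bind a hairpin called the iron-responsive element in ferritin and transferrin receptor mRNA, holding back ferritin translation and protecting the receptor mRNA when iron is low.

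The hairpins were searched for in the transcripts of the members because they are the shared sequence by which storage and uptake are known to be set. The search used the letters CNNNNNCAGTGNNNNNN on the transcript strand, with the 5 bases on each side of the loop able to pair and G–T pairs allowed, in the longest complete coding transcript of each gene (GENCODE, build GRCm38). The sites of the ferritin chains and the transferrin receptor are printed 5′ to 3′ in 30 bases each, with the loop in capitals. The Fth1 site lies in the 5′ UTR in exon 2 of 5 at chr19:9982732-9982761 on the plus strand, and the Ftl1 site in the 5′ UTR in exon 1 of 4 at chr7:45459778-45459807 on the minus strand. The 4 Tfrc sites lie in the 3′ UTR in exon 19 of 19 on the plus strand, at chr16:32631219-32631248, chr16:32631598-32631627, chr16:32631663-32631692 and chr16:32631710-32631739.
Fth1 5′ UTR: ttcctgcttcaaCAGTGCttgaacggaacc
Ftl1 5′ UTR: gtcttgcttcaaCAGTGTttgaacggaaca
Tfrc 3′ UTR, site 1: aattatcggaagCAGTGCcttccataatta
Tfrc 3′ UTR, site 2: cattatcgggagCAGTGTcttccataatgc
Tfrc 3′ UTR, site 3: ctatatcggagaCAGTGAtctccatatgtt
Tfrc 3′ UTR, site 4: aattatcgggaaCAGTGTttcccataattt

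Slc40a1 held 1 such match in its 5′ UTR, and the other 6 members held none in either UTR of the transcript searched. Of 21767 genes searched, 138 (0.634%) held a match in a UTR, and 1 gene, Tfrc, held 2 or more. A match is a description of letters and pairing, not a measurement of binding.

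For the metallothioneins, whose genes lie side by side on chromosome 8 at chr8:94172664-94173568 (Mt2) and chr8:94179082-94180327 (Mt1) on the plus strand, the sequence upstream of Mt2 is printed because Mt2 had the largest change among the members. It is the 250 bases before the RefSeq start of Mt2, chr8:94172368-94172617 on the plus strand of GRCm38.p6. The capitals mark matches on either strand to TGCACNC or TGCGCNC, the core letters of the metal response element bound by the zinc sensor MTF1.
Mt2 upstream: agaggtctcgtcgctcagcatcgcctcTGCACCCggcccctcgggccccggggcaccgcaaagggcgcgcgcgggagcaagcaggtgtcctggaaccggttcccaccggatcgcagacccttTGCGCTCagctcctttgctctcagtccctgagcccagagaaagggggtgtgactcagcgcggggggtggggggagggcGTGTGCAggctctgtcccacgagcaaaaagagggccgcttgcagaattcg

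The 3 matches begin at -223, -128 and -50 from the start, the last on the minus strand. Of 32851 promoter windows, each searched over the 250 bases before the start, 21.4% held at least 1 match and 1.26% held at least 3. The Mt1 window held 1 match, at -23, but its RefSeq start lies upstream of the starts of 2 annotated Mt1 transcripts (94179211 and 94179241). The bases just before those starts are thus not all in the window. The same limit holds for Mt2, whose annotated transcripts start at 94172664 and 94172860, past the end of the printed stretch. Positions are counted from the RefSeq start, and the numbers of matches of the 2 genes depend on the starts used. Of the other members with a window, one Tfrc window held 2 overlapping matches and those of Fth1, Ftl1 and Hamp held none. Windows for 6 of the 10 members were in the table. Hmox1, Slc40a1, Slc39a14 and Trf were not.

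Libraries were sequenced with QuantSeq, which reads the 3′ end of an mRNA, so that the number of reads of a gene does not grow with the length of its transcript. Levels are log2(normalized reads + 1) as deposited, and the whole reads behind them could be recovered. The libraries held between 6595417 and 11545945 reads. The cancer exercise library stood apart from the other 3, with 37.3% of its reads on globin genes against 7.86% to 8.76%. In it 15 of 15 listed red cell genes were at least 2-fold higher than in either library it was compared with. Of all genes tested, 9.39% were so against the cancer control and 12.0% against normal exercise. Hbb-b1 and Hbb-bs had close reads in it (791329 and 805161), as did Hbb-b2 and Hbb-bt (241041 and 254961). Shares and sums with globin may thus count some reads under 2 symbols. The 10 cardiomyocyte genes, among them Myh6, Tnnt2 and Actc1, summed to between 452340 and 511290 normalized reads, so that the labelled tissue was plain in all 4 libraries. Each comparison shares a library with 2 of the other 3, so that counts in one are not independent of counts in another. In whole tissue, fewer cells of a type and less RNA per cell cannot be told apart.

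**Figure D1:**
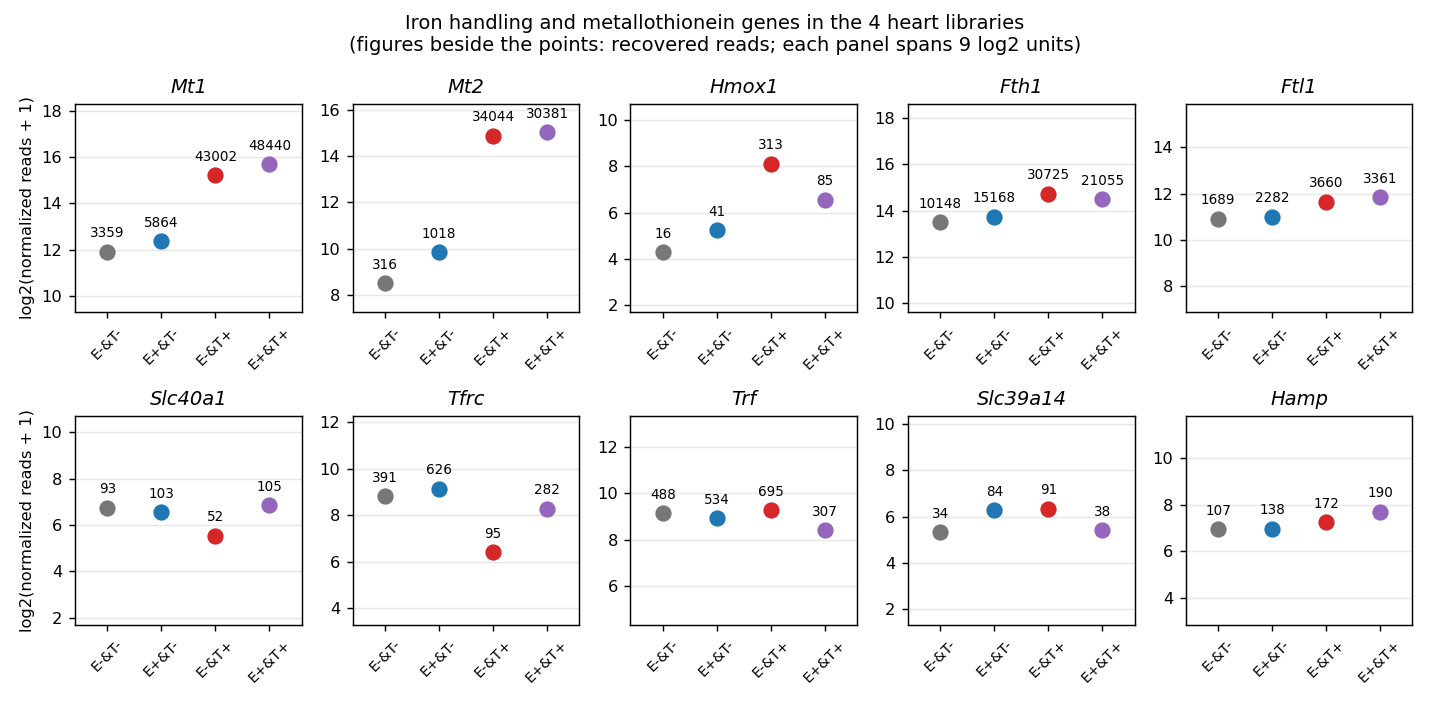
Level of the 10 genes in the 4 heart libraries, 1 panel per gene, with log2(normalized reads + 1) on the vertical axis and the groups on the horizontal axis. Each point is 1 library and the number beside it is its recovered reads. Mt1 and Mt2 sit highest in the 2 libraries with tumor, Hmox1 and Fth1 are highest in E-&T+, and Tfrc and Slc40a1 are lowest there.

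Cancer without exercise was the comparison with the most change. Between the cancer control and the normal control, 7 of the 10 members differed at least 2-fold, 5 higher (Mt1, Mt2, Hmox1, Fth1 and Slc39a14) and 2 lower (Tfrc and Slc40a1), where 27.6% of all 14317 genes tested did so, 14.6% higher and 13.1% lower. Among the 8630 genes with a mean at least as high as that of the lowest member, the share was 15.8%. The median of the members was 0.88 on the log2 scale, beside -0.01 over all genes tested. Together the members took 1.18% of the reads of the cancer control, against 0.252% of the normal control.

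Mt1 encodes the more abundant of the pair in these hearts. Its level was 11.91 in the normal control, 12.37 in normal exercise, 15.21 in the cancer control and 15.69 in cancer exercise, from 3359, 5864, 43002 and 48440 reads. Both tumor libraries were therefore above both libraries without tumor. Against the normal control, Mt1 rose 9.85-fold in the cancer control (log2 3.30, 95% counting interval 3.25 to 3.35), and it moved from rank 244 to rank 19 among all listed genes.

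Mt2 encodes a closely similar protein and started far lower. Its level was 8.51, 9.85, 14.87 and 15.02 in the same order, from 316, 1018, 34044 and 30381 reads. The tumor libraries again stood apart from the others, by over 5 log2 units even for the nearest pair (5.03, 4.94 to 5.12, between normal exercise and the cancer control). Mt2 rose 82.6-fold in the cancer control (log2 6.37, 6.21 to 6.54), the fifth largest rise among the 14317 genes, and went from rank 3030 to rank 23.

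Both genes also rose from normal exercise to cancer exercise. The rise was 9.99-fold for Mt1 (log2 3.32, 3.28 to 3.36) and 36.1-fold for Mt2 (log2 5.17, 5.08 to 5.27). In these mice the pair took 0.683% of all reads, compared with 0.808% in the cancer control, 0.0812% in normal exercise and 0.0557% in the normal control. Mt2 was also higher in the normal exercise library than in that of the normal control, 2.54-fold (log2 1.34, 1.16 to 1.53). Mt1 was at 0.46 there (0.40 to 0.52), under 2-fold. Mt2 was the only member past 2-fold in that comparison, 1 of 10, where 12.3% of 13937 genes were, 5.88% higher and 6.4% lower, and 2.18% of the genes as abundant as the members. Between the 2 tumor libraries neither passed 2-fold, and the direction of both small differences depended on the scaling: Mt1 was 0.48 and Mt2 0.15 higher in cancer exercise as deposited, and -0.11 and -0.44 when scaled to library size, which moved the median of all genes in that comparison to -0.59.

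The balance of the pair can be read within a library, free of the scaling between libraries. There were 10.6 Mt1 reads for each Mt2 read in the normal control (9.47 to 11.97), 5.76 in normal exercise (5.39 to 6.16), 1.26 in the cancer control (1.25 to 1.28) and 1.59 in cancer exercise (1.57 to 1.62). No 2 of these intervals overlapped. The genes are close copies, and how the authors' counting divided reads between similar genes is not known.

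**Figure D2:**
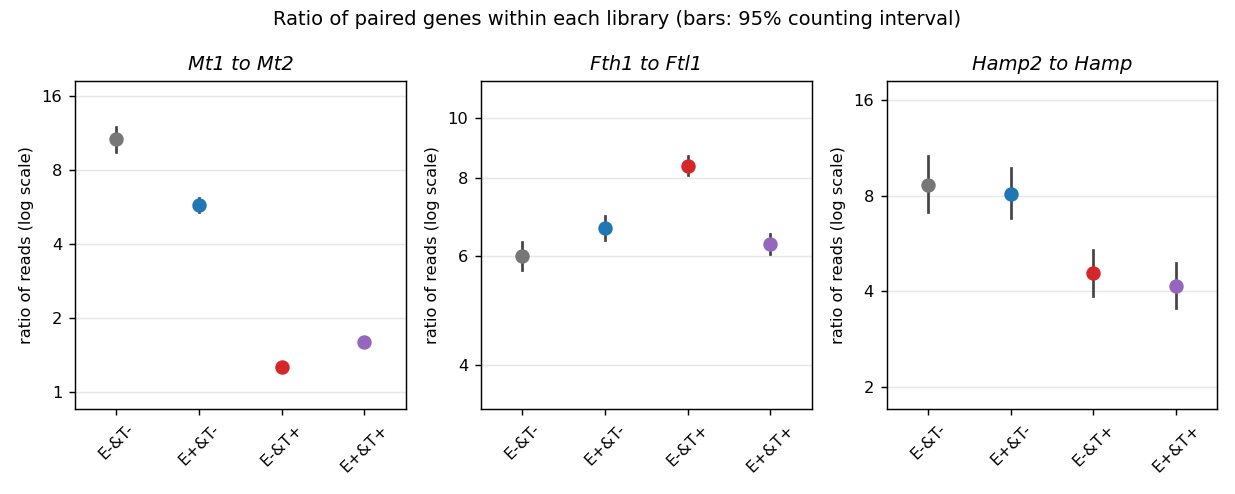
Ratio of the reads of paired genes within each library, on a log axis, for Mt1 to Mt2, Fth1 to Ftl1 and Hamp2 to Hamp, with 95% counting intervals as bars. Mt1 to Mt2 falls from 10.6 in E-&T- to 1.26 in E-&T+, Fth1 to Ftl1 is highest in E-&T+ at 8.40, and Hamp2 to Hamp is lower in both libraries with tumor.

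Hmox1, the inducible enzyme that breaks down haem (chr8:75093621-75100589, plus strand), had the fewest reads of the 10 members in the normal control. Its level was 4.29 in the normal control, 5.25 in normal exercise, 8.12 in the cancer control and 6.56 in cancer exercise, from 16, 41, 313 and 85 reads. All 3 steps in the order of levels were beyond counting error. It rose 14.2-fold in the cancer control (log2 3.82, 3.19 to 4.74) and was 0.95 higher in normal exercise (0.15 to 1.95), under 2-fold.

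In cancer exercise Hmox1 was 2.96-fold lower than in the cancer control (log2 -1.56, -1.93 to -1.22) and 2.48-fold higher than in normal exercise (log2 1.31, 0.77 to 1.90). The second of these fell short of 2-fold when scaled to library size (0.60). Macrophages are a known source of haem oxygenase 1. The 15 macrophage genes summed to 4005, 5062, 10241 and 6329 normalized reads in the same order of groups, with no member at 0 in the cancer control. There 9 of 14 tested were at least 2-fold higher than in the normal control and 1 lower, or 71.4% beside 27.6% of all genes. Cd68 had 371 reads against 78 and Marco 376 against 1, whereas Csf1r had 1052 against 875. Their part in the Hmox1 values was not tested.

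Fth1 encodes the heavy chain of ferritin, which oxidizes the iron it stores (chr19:9980598-9985098, plus strand). With levels of 13.51, 13.74, 14.73 and 14.49 from 10148, 15168, 30725 and 21055 reads, it was the most abundant member in both libraries without tumor. Fth1 rose 2.33-fold in the cancer control (log2 1.22, 1.19 to 1.25). It was lower in cancer exercise than in the cancer control by 1.18-fold (log2 -0.24, -0.26 to -0.21), which is under 2-fold. Scaled to library size this difference was -0.82, and that between cancer exercise and normal exercise went from 0.75 to 0.03.

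Ftl1, the light chain (chr7:45457944-45459884, minus strand), followed at a lower level of 10.92, 11.01, 11.66 and 11.84, from 1689, 2282, 3660 and 3361 reads. It passed 2-fold in none of the 4 comparisons, with 0.74 between the cancer control and the normal control (0.65 to 0.82) and 0.83 between cancer exercise and normal exercise (0.76 to 0.91). Scaled to library size these were 0.58 and 0.11. The difference of cancer exercise from the cancer control turned from 0.19 to -0.40. The heavy chain had 6.01 reads for each light chain read in the normal control (5.71 to 6.33), 6.65 in normal exercise (6.36 to 6.95), 8.40 in the cancer control (8.11 to 8.69) and 6.27 in cancer exercise (6.04 to 6.50). The cancer control thus had the most heavy chain reads per light chain read. Both ferritin genes have processed copies elsewhere in the genome, so reads could have been divided. The hairpins shown above act on translation of ferritin, which read counts of mRNA do not measure.

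Tfrc encodes the receptor that takes up transferrin-bound iron (chr16:32608920-32632794, plus strand), and its mRNA carries the 4 hairpins printed above. Its level was 8.81 in the normal control, 9.15 in normal exercise, 6.40 in the cancer control and 8.27 in cancer exercise, from 391, 626, 95 and 282 reads. The cancer control was lower than each of the other libraries, and all 3 steps in the order were beyond counting error. Tfrc fell 5.31-fold in the cancer control (log2 -2.41, -2.76 to -2.09), and 2.69% of all genes tested had a more negative difference.

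In cancer exercise Tfrc was 3.66-fold higher than in the cancer control (log2 1.87, 1.54 to 2.23) and 1.83-fold lower than in normal exercise (log2 -0.87, -1.09 to -0.67). Under both scalings that weigh globin differently, to library size and without those genes that took over 1% of any library, the second difference also passed 2-fold. Red cell precursors are known for very high transferrin receptor levels. The listed red cell genes summed to 4723000 normalized reads in cancer exercise and to between 645750 and 663860 in the other 3, with Slc4a1 at 1273 reads against 30 to 55 and Alas2 at 13106 against 1561 to 2421. Between the cancer control and the normal control the sums, which are nearly all globin, were 662710 and 663860. Of 13 red cell genes tested there, 3 were at least 2-fold higher, or 23.1% beside 14.6% of all genes. They were Ermap at 10 reads against 0, Klf1 at 8 against 0 and Hemgn at 10 against 2. The part of red cells in the Tfrc values was not tested.

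Trf, the serum iron carrier that is known to be made chiefly in the liver (chr9:103204001-103230444, minus strand), had levels of 9.13, 8.92, 9.26 and 8.40 from 488, 534, 695 and 307 reads. It passed 2-fold in no comparison and was lowest in cancer exercise, -0.87 from the cancer control (-1.07 to -0.67). Scaled to library size this difference was -1.45 and that from normal exercise -1.24, both past 2-fold. The 10 hepatocyte genes summed to 249, 224, 1316 and 1001 normalized reads, with albumin (Alb) at 7, 4, 55 and 107 reads, Cyp2e1 at 102, 59, 83 and 132 and Ahsg, which made up most of the sum in the cancer control, at 91, 162, 1186 and 499. Their part in the Trf values was not tested. The direction of the small difference of Trf between the cancer control and the normal control (0.13, -0.04 to 0.30) turned when scaled to library size (-0.02).

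Slc39a14, also called ZIP14, imports zinc and iron that is not bound to transferrin (chr14:70303469-70351425, minus strand). Its level was 5.33, 6.27, 6.35 and 5.41 from 34, 84, 91 and 38 reads. The libraries formed 2 levels, with normal exercise and the cancer control high and the other 2 low, and within each level the difference was inside counting error (0.08, -0.37 to 0.52, for the high pair and 0.09, -0.61 to 0.80, for the low pair). It rose 2.03-fold in the cancer control (log2 1.02, 0.46 to 1.66), just past the threshold, and was under it when scaled to library size (0.88). The difference with exercise was 0.94 without cancer (0.37 to 1.58) and -0.93 with cancer (-1.54 to -0.39), each just short of 2-fold. The latter was past it when scaled to library size (-1.51).

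Slc40a1, ferroportin, is the only known exporter of iron from cells (chr1:45908068-45926523, minus strand). Its level was 6.75, 6.56, 5.55 and 6.86 from 93, 103, 52 and 105 reads. The other 3 libraries did not differ from their neighbours in the order of levels beyond counting error, and the cancer control lay below them. Slc40a1 fell 2.30-fold in the cancer control (log2 -1.20, -1.74 to -0.71) and was 2.48-fold higher in cancer exercise than in the cancer control (log2 1.31, 0.83 to 1.83). The second difference was 0.73 when scaled to library size, under 2-fold. Macrophages that recycle red cells are known for high ferroportin, and the part of the macrophage genes given above in the Slc40a1 values was not tested.

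Hamp, the hormone hepcidin that lowers ferroportin (chr7:30942368-30944032, minus strand), is made chiefly in the liver and at a lower level in the heart. Its level was 6.95, 6.98, 7.25 and 7.71 from 107, 138, 172 and 190 reads, and no comparison passed 2-fold. The first 2 steps in the order were within counting error, and cancer exercise lay 0.45 above the cancer control (0.15 to 0.76), which became -0.13 when scaled to library size. Its near-identical neighbour Hamp2 had more reads, 927, 1121, 782 and 790, or 8.66, 8.12, 4.55 and 4.16 for each Hamp read. The 2 genes cannot be told apart with certainty, and the share of reads given to each is open to how the counting divided them.

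In the exercise comparison with cancer, 3 of 10 members passed 2-fold (Tfrc and Slc40a1 higher, Hmox1 lower), where 19.4% of all genes tested did, 9.39% higher and 10.0% lower, and 6.99% of the genes as abundant as the members. In the cancer comparison with exercise, 3 did (Mt1, Mt2 and Hmox1, all higher). Of all genes tested there 23.0% passed, 12.0% higher and 11.1% lower, and 10.4% of the genes as abundant as the members. Scaled to library size, 1 member was higher and 3 lower in the former comparison, and 2 were higher and 3 lower in the latter. The comparisons of cancer alone and of exercise in cancer share the cancer control library, so that any deviation of that library would move a gene in opposite directions in them. Their values were -2.41 and 1.87 for Tfrc, -1.20 and 1.31 for Slc40a1 and 3.82 and -1.56 for Hmox1. The comparison of exercise without cancer uses neither tumor library, and that of cancer without exercise does not use the library rich in globin.

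**Figure D3:**
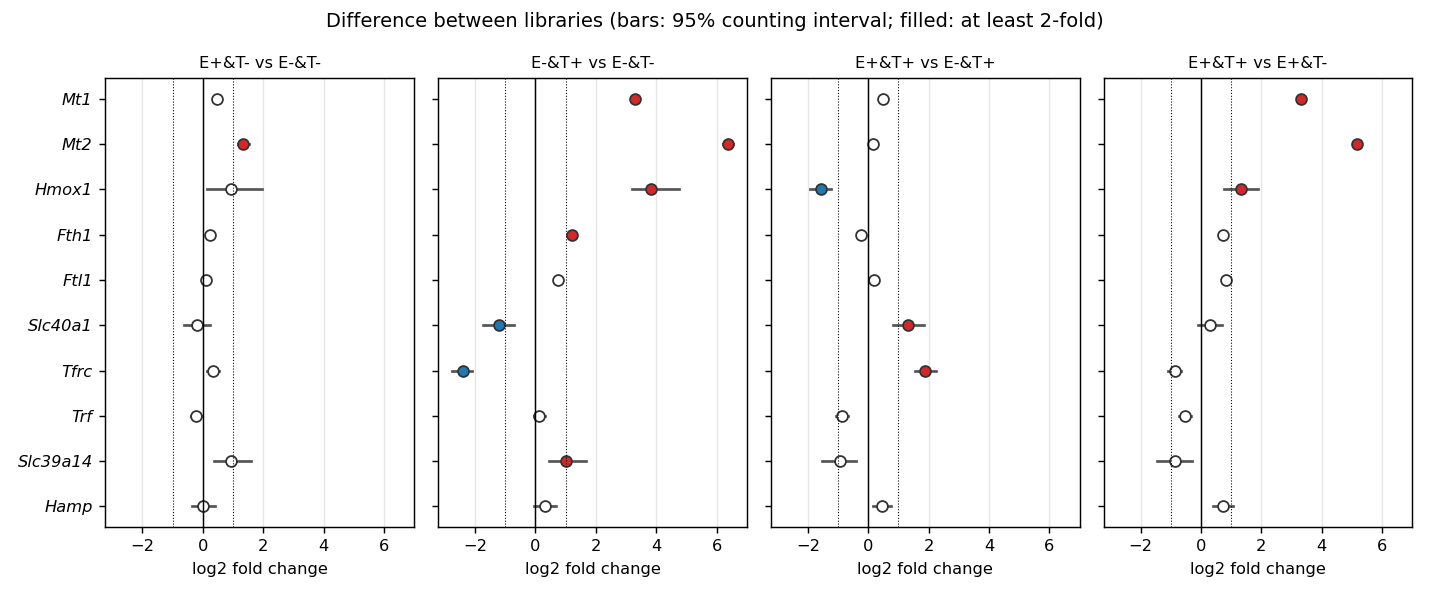
Log2 fold change of the 10 genes in the 4 comparisons, 1 panel each, with 95% counting intervals as bars. Filled points are at least 2-fold higher (red) or lower (blue), and dotted lines mark 2-fold. The panel of E-&T+ against E-&T- has 7 filled points, and the others have 1, 3 and 3.

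Of a list of 35 other iron genes chosen by role, a smaller share passed 2-fold in the cancer control. Past 2-fold were 4 of 32 tested with exercise, 6 of 32 with cancer, 6 of 33 with exercise in cancer and 8 of 34 with cancer in exercise. These shares of 12.5%, 18.8%, 18.2% and 23.5% were near or below those of all genes. They were above those of the genes as abundant as the members (2.18%, 15.8%, 6.99% and 10.4%), though some listed genes are less abundant. Of the listed genes past 2-fold, 2, 5, 4 and 7 were higher and 2, 1, 2 and 1 lower. Scaled to library size, the last 2 comparisons had 2 higher and 8 lower, and 3 higher and 5 lower. The genes of the iron sensing itself did not pass 2-fold in any of these comparisons: Aco1 (iron-regulatory protein 1) had 104, 127, 115 and 74 reads, Ireb2 (iron-regulatory protein 2) 129, 130, 130 and 66, and Fbxl5, which marks the latter for destruction, 143, 181, 177 and 186. They were singled out after their values were seen. When scaled to library size, Ireb2 was at least 2-fold lower in cancer exercise than in either library it was compared with, and Aco1 than in normal exercise.

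With cancer, Slc39a8 (ZIP8), the closest relative of Slc39a14, rose (log2 1.91, from 25 to 125 reads), as did Smad6, an inhibitor of the BMP signal that drives hepcidin (1.26, from 32 to 102 reads), and Cp, the ferroxidase ceruloplasmin (1.17, from 671 to 1966 reads). Slc39a8 was lower in cancer exercise than in the cancer control (-1.36, 39 reads). Smad6 also rose with exercise alone (1.31, 103 reads). Steap1, of low level, was picked out after its values were seen. The cancer control held 57 Steap1 reads, the normal control 0 and normal exercise 0. With a floor of 3 reads per library, its rise with cancer was at least 3.87 on the log2 scale.

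Against the cancer control, the largest rises of the list in cancer exercise were in genes known for a role in red cell formation. Against normal exercise, Steap1 had the largest difference as deposited (3.71, 11 reads against 0), above Slc25a37 (3.35) and Fam132b (3.235). Slc25a37 (mitoferrin 1) had 446, 450, 684 and 3813 reads, 2.79 higher on the log2 scale than in the cancer control, and Fam132b (erythroferrone) had 7, 4, 13 and 38 reads, 1.77 higher. Ncoa4, which brings ferritin to the lysosome, was 1.13 higher than in normal exercise, and under 2-fold when scaled to library size. Slc25a37, Fam132b and Ncoa4 moved with the red cell genes given above, and the part of those cells was not tested.

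Among genes for haem and haemoglobin scavenging, 4 of 11 tested passed 2-fold with cancer, 3 higher and 1 lower (Slc46a1, a haem and folate importer named after its values were seen, with 4 reads against 9), or 36.4% beside 27.6% of all genes. Hp (haptoglobin), which binds free haemoglobin, rose by 3.19 from 47 to 571 reads, and Cd163, its receptor on macrophages, by 1.56 from 221 to 847 reads. Cd163 was lower in cancer exercise than in the cancer control (-1.15), and Hp was 4.13 higher in cancer exercise than in normal exercise. Blvrb (biliverdin reductase B) was 1.49 higher and Abcg2, a transporter of haem precursors, 1.61 higher in the latter comparison. Hmox2, the constitutive haem oxygenase, passed 2-fold in none of the 4 comparisons (825, 917, 683 and 859 reads), and was picked out for its kinship with Hmox1.

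Few of the zinc genes apart from the metallothioneins passed 2-fold. Of 19 tested, 2 passed 2-fold with cancer, Slc39a8 and Slc39a11 (1.10), and the median was 0.01. In that comparison 27.6% of all genes passed, and 15.8% of the genes as abundant as the members. The pair that follows was singled out after its values were seen. Mtf1, the sensor that binds the letters printed for Mt2, had 274, 407, 347 and 278 reads and differed by -0.04 between the cancer control and the normal control. Slc30a1, a zinc exporter that is a known target of MTF1, had 265, 300, 348 and 285 reads and differed by 0.01 (-0.22 to 0.25). The part of zinc or MTF1 in the metallothionein values was not tested.

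Of 14 tested genes of the interleukin 6 and acute phase response, 10 rose and 1 fell past 2-fold with cancer, with a median of 1.85. That was 78.6%, beside 27.6% of all genes. In cancer exercise against normal exercise 10 rose and 0 fell, or 71.4% beside 23.0%. Saa3, an acute phase serum amyloid, rose by 8.13 from 7 to 2939 reads, Serpina3n by 6.45 from 73 to 8398 reads, and Lcn2, which binds bacterial iron carriers, by 5.84 from 14 to 1123 reads. Socs3, the feedback inhibitor of the same signal, was 2.96 higher with cancer and 1.32 higher with exercise alone (76 to 243 reads). The list was split with exercise alone: of 12 tested, 2 rose and 2 fell past 2-fold, with a median of 0.07. That was 33.3%, beside 12.3% of all genes. Socs3 and Cebpb (1.11) rose, while Orm1 (-2.17, from 24 to 6 reads) and Saa3 (-1.39, from 7 to 3 reads) fell. With exercise in cancer 2 rose past 2-fold, Socs3 (1.15, from 779 to 1398 reads) and Orm1 (1.55, from 12 to 30 reads), and 4 fell, among them Saa3 (-2.19) and Serpina3n (-1.58). Mt1 and Mt2 were within 2-fold there. The part of this signal in the metallothionein values was not tested.

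Of 10 genes of the glucocorticoid response, 5 rose and 0 fell past 2-fold with cancer, with a median of 0.99. Among all genes tested, 27.6% passed 2-fold in that comparison. With exercise alone 2 of the 10 rose and 2 fell past 2-fold, where 12.3% of all genes passed. Per1 (1.55) and Cdkn1a rose there, while Sult1a1 (-1.24) and Zbtb16 (-1.17) fell. Nr3c1, the glucocorticoid receptor, named after its values were seen, lay just short of 2-fold with cancer (-0.99, -1.21 to -0.78, from 456 to 297 reads). Fkbp5 (2.22, from 165 to 1005 reads), Per1 (2.28, from 57 to 366) and Sgk1 (2.22, from 199 to 1213) rose with cancer. Cdkn1a rose with exercise alone (1.74), with cancer (1.99) and with exercise in cancer (1.54), from 553 reads in the normal control to 6685 in cancer exercise.

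Genes of the NRF2 axis, which is known to drive Hmox1 and ferritin, passed 2-fold with cancer in 3 of 13 cases, or 23.1%. That lay below the 27.6% of all genes and above the 15.8% of the genes as abundant as the members. The median of the 13 was 0.52, and 9 of them were above 0. Nqo1 (1.85, from 177 to 832 reads) and Gclc (1.14, from 61 to 177) rose and the gene of NRF2 itself, Nfe2l2, fell (-1.46, from 542 to 255 reads). Of 11 hypoxia targets, 2 rose and 3 fell past 2-fold with cancer, or 45.5% beside 27.6% of all genes. Bnip3, a mitophagy receptor (1.90), and Slc2a1, a glucose transporter (1.31), rose, and Vegfa (-1.45, from 840 to 399 reads), Egln3 (-1.05, from 393 to 246) and Ankrd37 (-4.14, from 66 to 4) fell. These 3 were higher again in cancer exercise than in the cancer control, by 1.45, 1.42 and 2.27. The part of hypoxia in the members' values was not tested.

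**Figure D4:**
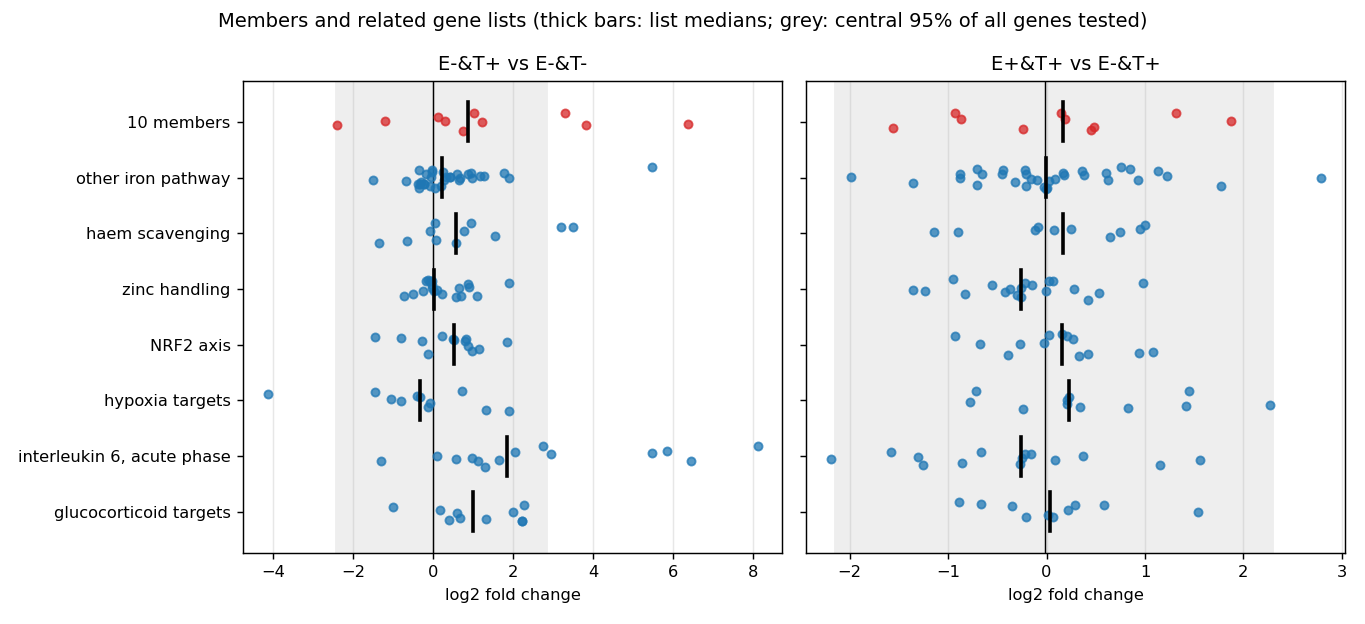
Log2 fold changes of the 10 members and of 7 related gene lists for E-&T+ against E-&T- and E+&T+ against E-&T+, 1 point per gene tested, with list medians as thick bars and the central 95% of all genes tested in grey. In the first panel the medians are 0.88 for the members, 0.22 for the other iron genes and 1.85 for the interleukin 6 list. The second panel has its own horizontal scale.

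Markers of cells other than cardiomyocytes differed between the libraries. The 11 neutrophil genes summed to 148, 100, 3276 and 6187 normalized reads in the order given above, with S100a8 at 40, 38, 1511 and 2537 reads. With cancer 10 of the 10 tested rose past 2-fold, where 14.6% of all genes did. Mt1 and Mt2 were also high in the 2 libraries with tumor, and Hp and Lcn2 are also known as neutrophil granule proteins. Of the 8 lung epithelium genes 4 were at least 2-fold higher in cancer exercise than in the cancer control, where 9.39% of all genes were. Their sum was 1887 against 591. Between the cancer control and the normal control (591 and 645) 0 differed 2-fold, where 27.6% of all genes did. With exercise alone 4 were at least 2-fold lower, where 6.4% of all genes were, with a sum of 176 against 645. The 9 adipocyte genes summed to 23027, 15979, 13808 and 22218, with Adipoq at 317, 78, 76 and 356 reads and Plin1 at 52, 16, 0 and 76. Of the 9, 7 fell past 2-fold with cancer and 7 with exercise alone, where 13.1% and 6.4% of all genes fell. The part of these cells in the members' values was not tested.

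The genes with the most similar profile over the 4 libraries were sought among the 7077 genes whose mean was 100 normalized reads or more, by the root mean square difference between log2 profiles centred on their own mean. With only 4 libraries many genes share a profile, and the likeness is a description. Nearest to Mt1 were Spidr (0.13), Stc1 (0.20), Hp (0.29) and Slc10a6 (0.38). Nearest to Hmox1 were Lox (0.25), Srpx (0.25), Ccl6 (0.25) and Rn4.5s (0.26). Nearest to Tfrc were Pgpep1 (0.11), P2ry1 (0.12), Gm10336 (0.15) and Gpr22 (0.16), and nearest to Slc40a1 were Ankrd9 (0.04), 9030617O03Rik (0.07), Trmt2b (0.07) and Sdhaf4 (0.08). None of these 16 genes was a member or on the list of other iron genes.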

How the data were processed

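The 4 heart libraries, 1 per group, were analysed. Per the methods and the submitters' processing notes, QuantSeq reads were aligned by the authors with Bowtie2 to mm10, Bedtools gave a count for each gene, and a quantile normalization from edgeR followed (versions not given in the sources used here). The deposited values are log2 values of these normalized counts.

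Whole reads were recovered from them (dispersion 0.149, pseudocount 1). Of 25460 values of 5 to 99 reads, 100% came within 0.1 of a whole number, and the largest difference on giving the deposited values back was 0.000509. On simulated reads for 17174 genes in the cancer against normal control comparison, 97.8% were recovered exactly. The design had assumed normalized counts, and the log2 values were used as deposited.

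A change needed at least 2-fold and at least 4 normalized reads in 1 of the 2 libraries. With 1 library per group there is no test. Each interval is a 95% Clopper-Pearson interval for the ratio of 2 read numbers and takes in counting error alone, since reads may be PCR copies of 1 molecule. The members, the gene lists and the rules were chosen with earlier results of these data known. Genes named are every member, up to 4 per list and comparison with the largest change among genes averaging 16 normalized reads or more, defining markers, and the 4 nearest profiles of 4 members. A gene under this rule is not reported here. Others are said to be chosen after their values were seen. Alternatives covered scaling, count minimum, pseudocount and depth. Promoter sequences are RefSeq's. Scripts ran in Python 3.11.15 (matplotlib 3.10.9, pandas 2.3.3, scipy 1.17.1, numpy 2.4.6).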

Additional observations from a re-analysis of the deposited data

Results flagged for a closer look

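As deposited, the difference with exercise went one way without tumor and the other way with tumor for 3 members, each beyond counting error. The share of all genes that did so was not counted, and abundant genes such as Fth1 exceed counting error at small differences. Hmox1 was 0.95 higher on the log2 scale with exercise alone and -1.56 with exercise in cancer. Slc39a14 was at 0.94 and -0.93, and Fth1 at 0.238 and -0.235. Of these values only the difference of Hmox1 in cancer passed 2-fold. The set depended on the scaling. Scaled to library size, Mt1 (0.44 and -0.11), Mt2 (1.32 and -0.44), Ftl1 (0.07 and -0.40) and Hamp (0.005 and -0.13) also had opposite signs. With 1 library per group the 2 differences were not tested against each other.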

How the results depend on the processing

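Scaling mattered most for the cancer exercise library. Scaling to library size moved the median of all genes to -0.02, -0.16, -0.59 and -0.72 in the comparisons of exercise, cancer, exercise in cancer and cancer in exercise, and leaving out the 12 genes over 1% of a library moved it to -0.04, -0.16, -0.08 and -0.18. For cancer in exercise, 5 members instead of 3 then passed 2-fold under either scaling, with Tfrc and Slc39a14 lower in both, Trf lower in the first and Hmox1 no longer past in the first. Of 40 member values, 22 moved by more than the width to one side of their counting interval under the first scaling, 6 with a change of sign, and 11 under the second, 2 with a change of sign. None moved so far with a pseudocount of 4, a trimmed mean of log ratios, subsampling or summing the values of a symbol. Subsampled to the smallest library, 2 members instead of 1 passed 2-fold with exercise, Slc39a14 being added. The other iron genes past 2-fold with exercise went from 4 to 1 with a minimum of 16 and to 2 with a pseudocount of 4 or subsampling. With cancer in exercise they went from 8 to 5 with that minimum, and with exercise in cancer from 6 to 10 when scaled to library size. The cause was not tested, except that a higher minimum leaves fewer genes. Depth limits Hmox1, Slc39a14, Slc40a1 and Hamp most. No paired analysis was possible because each group has 1 library.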
